A study of Homo sapiens with 18 samples.

Results

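KRAB zinc finger genes encode proteins that pair a Krüppel-associated box (KRAB), a repressor domain, with an array of zinc fingers that binds DNA. The genes followed here are 50 listed by symbol, ZNF10 among them, whose KRAB domain is the source of the repressor fused to dCas9 in this study. All 50 were found among the 24394 genes of the count tables, 25 of them on chromosome 19 and the rest on 10 other chromosomes. They entered the list by name and not by a cut on their values, though earlier results of these data were known when the list was made.

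A KRAB domain recruits the scaffold protein TRIM28, which brings the histone methyltransferase SETDB1 and HP1 proteins to the bound site and silences it. Many of these proteins bind transposable elements, ZNF91 and ZNF93 being known for binding SVA and L1 elements, and many of the genes lie in clusters of near copies that arose by duplication. A fusion of dCas9 with the KRAB domain uses the same co-repressors at a site chosen by a guide RNA (gRNA).

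RNA was sequenced from K562, an established human erythroleukaemia line, in 18 libraries that form 6 groups of 3. KRAB_CR4 and KRAB_CR10 carried lentiviral dCas9-KRAB with the gRNA CR4 or CR10 against HS2, an enhancer that lies far from the globin genes it acts on. The groups dCas9_CR4 and dCas9_CR10 carried the same gRNAs with dCas9 that had no repressor domain, KRAB_no_gRNA carried dCas9-KRAB without a gRNA, and no_lentivirus was not transduced. All 15 lentiviral libraries also shared transduction in 4 µg/ml polybrene and selection in 1 µg/ml puromycin from about 96 hours, steps that the label of the no_lentivirus group does not include. Whether the libraries of a group came from separate cultures is not stated, so p-values measure the spread between these libraries.

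Libraries held between 22805964 and 34032962 counts, and levels are given as CPM, the count of a gene scaled to the size of its library, after TMM scaling. Erythroid genes marked the cells, with GATA1 between 181 and 292 CPM, while the B cell gene MS4A1 was at 0 in every library and the epithelial gene CDH1 was at most 0.336 CPM. EPCAM, KRT8 and KRT18, listed as epithelial markers, were also high, at 80.7 CPM or more. HBE1, the embryonic globin gene under HS2, averaged 61.6 ± 6.2 CPM in KRAB_CR4 and 85 ± 11 CPM in KRAB_CR10, against 359 ± 38.2 CPM in dCas9_CR4, 381 ± 46.8 CPM in dCas9_CR10 and 457 ± 17.8 CPM in KRAB_no_gRNA (SD, n = 3 each). The share of ribosomal RNA was 4.02% in library 2 of KRAB_CR4, 3.52% in library 1 of KRAB_CR10 and no more than 1.5% elsewhere. The lentiviral libraries labelled number 3 stood apart from numbers 1 and 2 in every group, and no_lentivirus library 2 stood apart from the other no_lentivirus libraries. Counts of calls against no_lentivirus are also given without library 2, and fold changes without it for some of the called genes only. The count for KRAB against dCas9 is also given without the libraries numbered 3.

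The promoters of these genes fall into sets by shared sequence. RefSeq promoter windows of 250 bases before to 50 after the gene start (GRCh38.p14) were at hand for 44 of the 50 genes. The first set printed here belongs to 9 genes with near-copy promoters (ZNF43, ZNF85, ZNF90, ZNF91, ZNF92, ZNF93, ZNF100, ZNF138 and ZNF254). Their 36 pairs were 78.5% to 87.0% identical over at least 200 aligned bases. The capitals mark CCAATCAGG, a 9-base run around a CCAAT box. Here and below motifs were searched on both strands. The table lists several windows for 9 of the 44 genes. A gene was counted as holding a motif if any of its windows held it, while the stretches printed and aligned come from the first window listed.
ZNF43 (chr19:21836183-21836432, minus strand): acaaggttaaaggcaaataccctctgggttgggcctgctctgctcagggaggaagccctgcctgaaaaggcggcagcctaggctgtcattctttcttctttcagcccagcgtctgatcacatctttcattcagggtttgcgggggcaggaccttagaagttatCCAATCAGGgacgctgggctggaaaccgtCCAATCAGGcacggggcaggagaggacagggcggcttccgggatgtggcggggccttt
ZNF91 (chr19:23395472-23395721, minus strand): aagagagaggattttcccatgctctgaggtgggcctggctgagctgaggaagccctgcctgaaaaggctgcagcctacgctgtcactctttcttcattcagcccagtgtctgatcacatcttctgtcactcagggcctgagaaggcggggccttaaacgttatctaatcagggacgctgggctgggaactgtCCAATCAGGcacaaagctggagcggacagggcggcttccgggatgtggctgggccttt
ZNF93 (chr19:19900696-19900945, plus strand): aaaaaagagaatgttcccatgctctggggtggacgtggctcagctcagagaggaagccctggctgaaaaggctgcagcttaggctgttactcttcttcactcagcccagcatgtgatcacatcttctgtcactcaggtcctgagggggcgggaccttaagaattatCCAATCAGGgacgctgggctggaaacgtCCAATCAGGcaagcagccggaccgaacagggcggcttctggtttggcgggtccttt
ZNF138 (chr7:64794178-64794427, plus strand): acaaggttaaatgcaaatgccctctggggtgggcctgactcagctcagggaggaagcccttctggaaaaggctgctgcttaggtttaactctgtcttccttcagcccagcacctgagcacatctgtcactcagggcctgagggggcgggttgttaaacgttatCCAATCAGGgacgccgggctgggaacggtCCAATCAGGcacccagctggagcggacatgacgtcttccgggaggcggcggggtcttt
ZNF138 lies on chromosome 7 and the other 3 on chromosome 19, yet ZNF43, ZNF93 and ZNF138 each carry the run in 2 places and ZNF91 carries it once. The run was present in the windows of 15 of the 44 genes (34.1%), of 13.2% of 386 other ZNF genes and of 1.36% of 27305 genes. ZNF273 holds it in the second of its 2 windows only, and with first windows alone, an alternative chosen after seeing the data, the count was 14.

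The second set belongs to genes without the CCAAT run. The capitals mark ACTACA followed, after any 2 bases, by TCCC, here read on the opposite strand as GGGA, any 2 bases and TGTAGT. It is known as a core of the sites bound by ZNF143, a zinc finger activator.
ZNF26 (chr12:132986117-132986366, plus strand): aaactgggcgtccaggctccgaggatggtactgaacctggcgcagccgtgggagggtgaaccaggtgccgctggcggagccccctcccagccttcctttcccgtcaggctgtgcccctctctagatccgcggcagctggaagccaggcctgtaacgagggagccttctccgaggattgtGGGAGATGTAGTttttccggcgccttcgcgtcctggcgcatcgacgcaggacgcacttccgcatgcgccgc
ZNF180 (chr19:44500523-44500772, minus strand): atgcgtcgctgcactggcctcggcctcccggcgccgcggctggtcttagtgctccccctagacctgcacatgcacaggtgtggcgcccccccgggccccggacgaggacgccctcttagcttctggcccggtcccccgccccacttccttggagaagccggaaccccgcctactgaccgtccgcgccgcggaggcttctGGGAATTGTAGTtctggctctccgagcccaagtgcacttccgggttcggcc
ZNF189 (chr9:101398601-101398850, plus strand): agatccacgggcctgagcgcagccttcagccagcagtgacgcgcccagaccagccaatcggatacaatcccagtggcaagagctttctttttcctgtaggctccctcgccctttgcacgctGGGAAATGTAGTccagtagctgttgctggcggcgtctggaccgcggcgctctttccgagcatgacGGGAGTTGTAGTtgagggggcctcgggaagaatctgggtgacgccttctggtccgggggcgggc
ZNF189 holds this motif in 2 places and the other 2 genes once each. It was found in the windows of 10 of the 44 genes (22.7%), namely ZNF26, ZNF37A, ZNF45, ZNF74, ZNF112, ZNF140, ZNF180, ZNF189, ZNF224 and ZNF268, and in those of 12.2% of other ZNF genes and 2.15% of all genes. None of the members held both motifs. GGGCGG was in the windows of 59.1% of the 44 genes and 48.3% of all genes (56.8% of the 44 with first windows alone), and TATAAA in 0 of 44 and 13.99% of all. The motifs were chosen after the promoters and earlier results had been seen, and a match is a description of the letters only.

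Most of the genes were transcribed in K562 at moderate levels. Over the 18 libraries 28 of 50 had a mean of at least 10 CPM, 17 lay between 1 and 10 CPM and 5 were under 1 CPM, with a median of the means of 13.8 CPM. Per kilobase of transcript, which could be computed for 46 genes, the highest level was that of ZNF74 at 36.9 CPM per kb. ZNF195, on the same chromosome arm as the HS2 target, followed at 22.6, ZNF138 at 17.6, ZNF274 at 17.2 and ZNF28 at 14.5 CPM per kb. The lowest were ZNF141 at 0.0203, ZNF90 at 0.0603, ZNF256 at 0.275, ZNF155 at 0.325 and ZNF112 at 0.399 CPM per kb. ZNF10 stood at 1.59 CPM per kb, below its neighbour ZNF268 at 5.02 CPM per kb. ZNF90 and ZNF141 had at most 8 and 6 counts in a library and fell under the low-count filter, so 48 of the 50 genes were tested.

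The steadiest gene was ZNF195, whose 18 libraries ranged from 42.6 to 56.3 CPM, a 1.32-fold span. ZNF274, which brings SETDB1 to zinc finger gene clusters, spanned 1.44-fold, from 37.3 to 53.7 CPM. ZNF93 spanned 3.31-fold, from 13.5 to 44.8 CPM, with its highest value in no_lentivirus library 2. The widest span among tested genes, 11.1-fold, was that of ZNF155 at 0.24 to 2.67 CPM, a gene with as few as 6 counts in a library. The summed level of all 50 genes averaged 1060 ± 66.5 CPM in KRAB_CR4, 1009 ± 41.3 CPM in KRAB_CR10, 1012 ± 89.7 CPM in dCas9_CR4, 1056 ± 40.7 CPM in dCas9_CR10, 1008 ± 52.2 CPM in KRAB_no_gRNA and 1062 ± 84.6 CPM in no_lentivirus (SD, n = 3 each). The ranges of all 6 groups overlapped. Near copies such as ZNF33A and ZNF33B, whose promoter windows are 87.6% identical, may share reads, and how reads with several alignments were counted is not given in the sources used here.

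**Figure D1:**
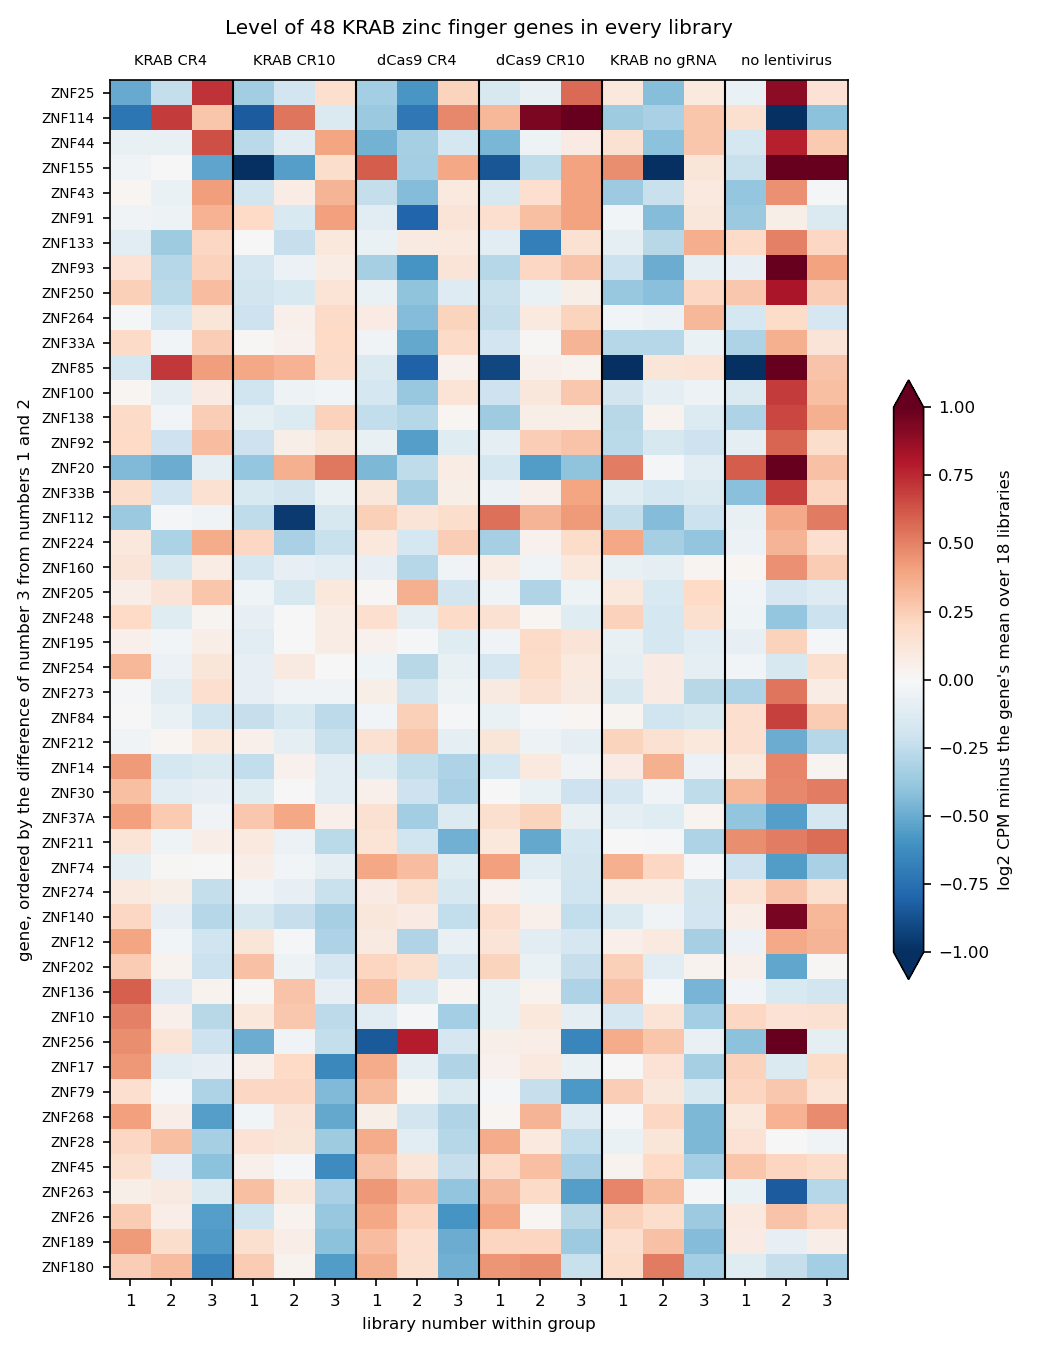
Colour shows log2 CPM minus the gene's own mean over the 18 libraries for the 48 tested genes (rows) in each library (columns, number 1 to 3 within each group), with rows ordered by the difference of libraries numbered 3 from numbers 1 and 2. Columns numbered 3 in the lentiviral groups are redder at the top and bluer at the bottom, and no_lentivirus library 2 reaches 44.8 CPM in ZNF93.

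The first comparison asks whether cells with the KRAB fusion, which carries the KRAB sequence of ZNF10, differed in these genes from cells with dCas9 alone. RNA came from whole cultures, so fewer cells with a transcript and less of it per cell cannot be told apart. No gene of the 48 passed in KRAB against dCas9 averaged over both gRNAs (edgeR quasi-likelihood test, Benjamini-Hochberg threshold 0.05), where 0.0272% of 14713 genes passed, and DESeq2 also called 0 of the 48. Their median log2 fold change was -0.01, the same as the median of all genes tested, with 23 positive values among the 48, against 45.9% of all genes. Among all genes 0.0068% rose and 0.0204% fell. At an unadjusted p under 0.05 there was 1 gene of the 48, against 1.26% of all genes. The fit used for all comparisons of groups has no term for the library number. Where a gene shifts with that number, the shift adds to the spread, so its interval tends to be wider and its p larger. The 95% interval lay within 2-fold for 45 of the 48 genes and within 1.5-fold for 40.

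ZNF10 had 9.94, 7.26 and 5.79 CPM in KRAB_CR4, 7.53, 8.42 and 5.83 CPM in KRAB_CR10, 6.52, 6.90 and 5.54 CPM in dCas9_CR4, and 6.66, 7.53 and 6.53 CPM in dCas9_CR10. KRAB_no_gRNA had 6.25, 7.68 and 5.53 CPM, and no_lentivirus 8.07, 7.75 and 7.80 CPM. The 9 libraries with the fused KRAB domain spanned 5.53 to 9.94 CPM and contained the whole range of the 6 dCas9 libraries, 5.54 to 7.53 CPM. Whether reads of the fused KRAB sequence were counted under ZNF10 was not checked. Values in the KRAB libraries may therefore not come from the gene's own transcript alone. Averaged over both gRNAs ZNF10 was 7.46 ± 1.59 CPM with KRAB and 6.61 ± 0.647 CPM with dCas9 (SD, n = 6 each), a log2 fold change of 0.17 ± 0.14 (SE) with an interval of -0.14 to 0.49 and an adjusted p of 1 by edgeR. A rise of ZNF10 above the upper end of that interval was not seen. The value was 0.28 ± 0.21 with CR4 and 0.07 ± 0.20 with CR10, and the difference between them was 0.20 ± 0.29.

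ZNF112 had the smallest p of the 48 genes. It had 1.04, 1.33 and 1.30 CPM in KRAB_CR4, 1.12, 0.69 and 1.197 CPM in KRAB_CR10, 1.58, 1.46 and 1.51 CPM in dCas9_CR4, and 1.96, 1.69 and 1.79 CPM in dCas9_CR10. KRAB_no_gRNA had 1.14, 0.988 and 1.15 CPM. All 9 KRAB libraries, with or without a gRNA, lay at or below 1.33 CPM and all 6 dCas9 libraries at or above 1.46 CPM, while no_lentivirus, with 1.27, 1.74 and 1.92 CPM, overlapped both. The mean over both gRNAs was 1.11 ± 0.234 CPM with KRAB and 1.67 ± 0.186 CPM with dCas9 (SD, n = 6 each), a log2 fold change of -0.59 ± 0.19 with an unadjusted p of 0.00726 that did not survive adjustment over all genes (adjusted p of 1, edgeR). With CR10 alone it was -0.86 ± 0.27 (adjusted p of 1, edgeR). These values rest on 20 to 32 counts in a KRAB library and 36 to 60 in a dCas9 library. The fragments behind them are fewer if both mates were counted. ZNF112 was picked by its p in these same libraries, so its separation is no independent support. How many of all genes separate in this way was not computed.

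ZNF37A and ZNF44 followed ZNF112 in that comparison and did not pass either. ZNF37A had 92.8, 83.6 and 68.1 CPM in KRAB_CR4 and 84.1, 91.3 and 72.1 CPM in KRAB_CR10, against 77.7, 55.0 and 63.6 CPM in dCas9_CR4 and 78.2, 81.6 and 66.3 CPM in dCas9_CR10. The groups overlapped, and the log2 fold change was 0.22 ± 0.11 (adjusted p of 1, edgeR). ZNF44 averaged 5.17 ± 1.35 CPM with KRAB and 4.07 ± 0.642 CPM with dCas9 (SD, n = 6 each), with a log2 fold change of 0.35 ± 0.20. Among other named genes, ZNF91 and ZNF93 differed by 0.10 and 0.07 on the log2 scale, ZNF195 by -0.02, ZNF202 by 0, ZNF263 by -0.07 and ZNF274 by -0.05. None of these intervals left the 2-fold range.

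**Figure D2:**
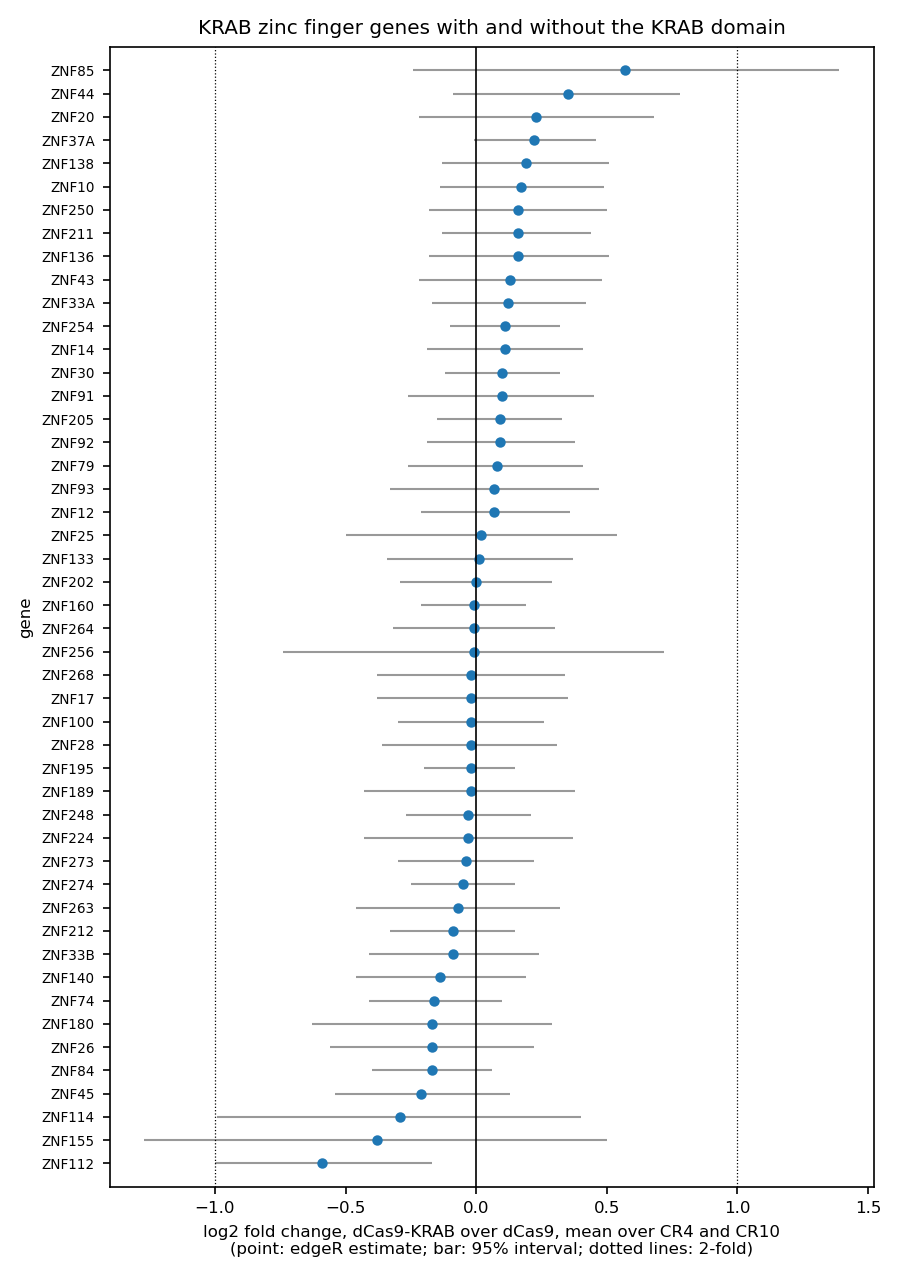
Points are edgeR log2 fold changes of dCas9-KRAB over dCas9, averaged over CR4 and CR10, for the 48 tested genes, with 95% intervals as bars and 2-fold marked by dotted lines. The intervals of 45 genes stay within the dotted lines, and ZNF112 at -0.59 is the lowest point.

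The gRNA comparisons gave the same count. None of the 48 genes passed in KRAB_CR4 or KRAB_CR10 against KRAB_no_gRNA, nor in either KRAB group against the dCas9 group of its gRNA, and in each of these 4 comparisons 0.0204% of genes passed. None passed in dCas9_CR4 or dCas9_CR10 against KRAB_no_gRNA, in KRAB_CR4 against KRAB_CR10 or in the difference of the KRAB effects, where 0% of genes passed. DESeq2 called 0 of the 48 in all of them as well. An unadjusted p under 0.05 was found for 0 of the 48 genes in KRAB_CR4 and KRAB_CR10 against KRAB_no_gRNA (1.71% and 1.49% of all genes), 0 in KRAB_CR4 against dCas9_CR4 (0.999%), and 1 in KRAB_CR10 against dCas9_CR10 (0.496%). It was found for 0 in dCas9_CR4 against KRAB_no_gRNA (0.449%), 2 in dCas9_CR10 against KRAB_no_gRNA (1.19%), 0 in KRAB_CR4 against KRAB_CR10 (0.897%) and 0 in the difference (0.347%). The intervals lay within 2-fold for 42 to 44 of the 48 genes in the comparisons of single groups, and for 32 genes in the difference of effects, which was therefore measured less closely.

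ZNF33A was higher in all 3 KRAB_CR4 libraries, at 53.7, 46.1 and 55.8 CPM, and in all 3 KRAB_CR10 libraries, at 47.5, 48.5 and 54.0 CPM, than in KRAB_no_gRNA, at 38.5, 38.5 and 44.9 CPM. The log2 fold changes were 0.35 ± 0.19 and 0.30 ± 0.19, and both adjusted p-values were 0.999 by edgeR. ZNF37A gave 0.29 ± 0.15 with CR4 and 0.30 ± 0.15 with CR10 against KRAB_no_gRNA, which had 65.2, 64.2 and 71.1 CPM. The comparisons share the KRAB_no_gRNA libraries. ZNF92 with CR4 (0.33 ± 0.19) and ZNF212 with CR10 (-0.25 ± 0.15) completed the 3 smallest p-values, with adjusted p of 0.999 by edgeR.

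Against dCas9_CR4, KRAB_CR4 had its smallest p-values in ZNF37A (0.32 ± 0.15), ZNF254 (0.27 ± 0.14) and ZNF92 (0.35 ± 0.19). Against dCas9_CR10, KRAB_CR10 had them in ZNF112, ZNF114 (-0.90 ± 0.45) and ZNF20 (0.58 ± 0.29), all genes near 1 or 2 CPM. Set against KRAB_no_gRNA, ZNF112 was 0.73 ± 0.27 higher on the log2 scale in dCas9_CR10 and 0.48 ± 0.27 in dCas9_CR4, without passing (adjusted p of 1 for both, edgeR). ZNF114 was at 0.97 ± 0.45 and ZNF92 at 0.37 ± 0.19 in dCas9_CR10, and ZNF14 at -0.36 ± 0.19 and ZNF44 at -0.36 ± 0.29 in dCas9_CR4. KRAB_CR4 against KRAB_CR10 had ZNF20 (-0.54 ± 0.29), ZNF205 (0.19 ± 0.16) and ZNF160 (0.15 ± 0.13) at the top, and the difference of the effects had ZNF92 (0.51 ± 0.26), ZNF114 (1.22 ± 0.64) and ZNF160 (0.32 ± 0.19). None of these values passed.

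A list of KRAB co-repressors and other chromatin genes gave no call in KRAB against dCas9 either. It held 30 symbols, with TASOR also under its older symbol FAM208A. Of these 27 were tested, and 0 passed, with a median log2 fold change of 0.01 and a range of -0.16 to 0.20.

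Lentiviral groups set against no_lentivirus did show changes, all of them resting on the same 3 untransduced libraries. Transduction, polybrene, puromycin and the dCas9 protein differ together here and cannot be told apart. ZNF30 passed as lower in all 3 such comparisons and ZNF211 in 2 of them. Each gene called in any of the 3 changed in the same direction in all 3. A call in only some of them therefore does not make a change particular to those groups. In KRAB_no_gRNA against no_lentivirus 1 of the 48 genes fell and 0 rose (2.08%), where 6.63% of all genes passed (2.88% higher, 3.76% lower). In dCas9 averaged over both gRNAs 4 fell and 1 rose (10.4%, against 11.6% of all genes, 4.98% higher and 6.61% lower), and in KRAB with a gRNA, averaged over both and added after the data were seen, 5 fell and 1 rose (12.5%, against 9.9%, 3.79% higher and 6.11% lower). The members' shares are near those of all genes in the comparisons with gRNAs. The median log2 fold changes of the 48 genes were -0.24, -0.16 and -0.20, beside 0.01, 0.01 and 0 for all genes. For 413 other ZNF genes they were -0.03, 0.03 and 0.03. Medians without no_lentivirus library 2 were not computed, so how far they rest on that library is not known.

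ZNF30 had 24.28, 18.2 and 18.7 CPM in KRAB_CR4, 18.2, 19.7 and 18.4 CPM in KRAB_CR10, 20.5, 17.1 and 15.8 CPM in dCas9_CR4, 19.8, 18.9 and 17.1 CPM in dCas9_CR10 and 17.6, 19.2 and 16.5 CPM in KRAB_no_gRNA, against 24.9, 27.6 and 28.1 CPM in no_lentivirus. All 15 lentiviral libraries were below the 3 untransduced ones. The log2 fold change was -0.60 ± 0.14 for KRAB_no_gRNA (adjusted p 0.0261), -0.56 ± 0.12 for dCas9 (0.0108) and -0.46 ± 0.12 for KRAB with a gRNA (adjusted p 0.0254, edgeR).
ZNF211 had 11.9, 10.5 and 11.4 CPM in KRAB_CR4, 11.6, 10.4 and 9.02 CPM in KRAB_CR10, 11.96, 9.48 and 7.81 CPM in dCas9_CR4, 11.7, 7.62 and 9.61 CPM in dCas9_CR10 and 10.9, 10.7 and 8.76 CPM in KRAB_no_gRNA, against 15.0, 15.5 and 16.1 CPM in no_lentivirus. Here too no lentiviral library reached the untransduced level. It passed for dCas9 at -0.68 ± 0.15 (adjusted p 0.0134) and for KRAB with a gRNA at -0.52 ± 0.15 (adjusted p 0.0418, edgeR). For KRAB_no_gRNA it was at -0.62 without passing.

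ZNF74, the most abundant of the genes per length, was higher in all 15 lentiviral libraries (106 to 160 CPM) than in the 3 no_lentivirus libraries (81.8 to 104 CPM), and passed for dCas9. It had 157, 149 and 111 CPM in dCas9_CR4 and 160, 111 and 106 CPM in dCas9_CR10, against 104, 81.8 and 95.9 CPM in no_lentivirus, a log2 fold change of 0.49 ± 0.15 (adjusted p 0.039, edgeR). It was at 0.55 ± 0.17 for KRAB_no_gRNA (adjusted p 0.0551) and 0.33 ± 0.14 for KRAB with a gRNA (adjusted p 0.15, edgeR). ZNF37A rose with KRAB and a gRNA, whose values are given above, against 53.2, 47.6 and 61.8 CPM in no_lentivirus, by 0.60 ± 0.14 (adjusted p 0.0152, edgeR). In both cases the groups did not overlap.
ZNF84, a neighbour of ZNF10 near the end of the long arm of chromosome 12, had 14.2, 13.5 and 12.3 CPM in KRAB_CR4 and 12.02, 12.7 and 11.7 CPM in KRAB_CR10, against 15.8, 22.7 and 16.8 CPM in no_lentivirus. It fell by 0.54 on the log2 scale (SE 0.13, adjusted p 0.0167, edgeR). ZNF140 of the same neighbourhood averaged 7.5 ± 1.08 CPM with KRAB and a gRNA (n = 6) and 11.6 ± 3.82 CPM in no_lentivirus (n = 3), a log2 fold change of -0.64 ± 0.18 (adjusted p 0.0325, edgeR). ZNF155 passed as lower in the same comparison (-1.62 ± 0.45, adjusted p 0.0324, edgeR), from few counts. ZNF20 (-0.94 ± 0.24, adjusted p 0.0209) and ZNF250 (-0.60 ± 0.18, adjusted p 0.043, edgeR) passed as lower with dCas9. ZNF10 had log2 fold changes of -0.28 ± 0.20, -0.25 ± 0.17 and -0.08 ± 0.18 for KRAB_no_gRNA, dCas9 and KRAB with a gRNA, and passed in none.

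These calls depended on the untransduced libraries. Without no_lentivirus library 2, 0 of the 48 genes passed in any of the 3 comparisons, where 0.276%, 1.06% and 0.867% of all genes did. ZNF30 kept its size without that library, at -0.59, -0.55 and -0.44, with adjusted p of 0.0994, 0.0672 and 0.13 (edgeR), and ZNF211 stayed at -0.68 and -0.52. ZNF84, ZNF140 and ZNF250 shrank to -0.36, -0.35 and -0.39. Without no_lentivirus library 1 there were 14, 14 and 10 calls, among 16.4%, 18.8% and 16.8% of all genes, and without library 3 there were 0, 3 and 2. The single call in KRAB_no_gRNA was also lost without any 1 of its own 3 libraries. The dCas9 count was 3 without dCas9_CR4 library 1 or 2 or dCas9_CR10 library 1, and the count for KRAB with a gRNA was 2 without KRAB_CR4 library 2 or KRAB_CR10 library 1, and 3 without KRAB_CR4 library 3 or KRAB_CR10 library 2.

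No_lentivirus library 2 was the highest of the untransduced libraries for 28 of the 48 genes and the lowest for 12, against 44.9% and 40.4% of all genes tested. Of the 8 tested genes of the near-copy promoter family, 7 were highest there. Such near copies may share reads, so these may not be 7 separate observations. ZNF93 had 44.8 CPM in that library, against 19.2 and 27.0 CPM in the other no_lentivirus libraries, and ZNF100 had 64.5 CPM against 35.9 and 48.9 CPM. ZNF254 was the exception and was lowest there, at 33.1 CPM.

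**Figure D3:**
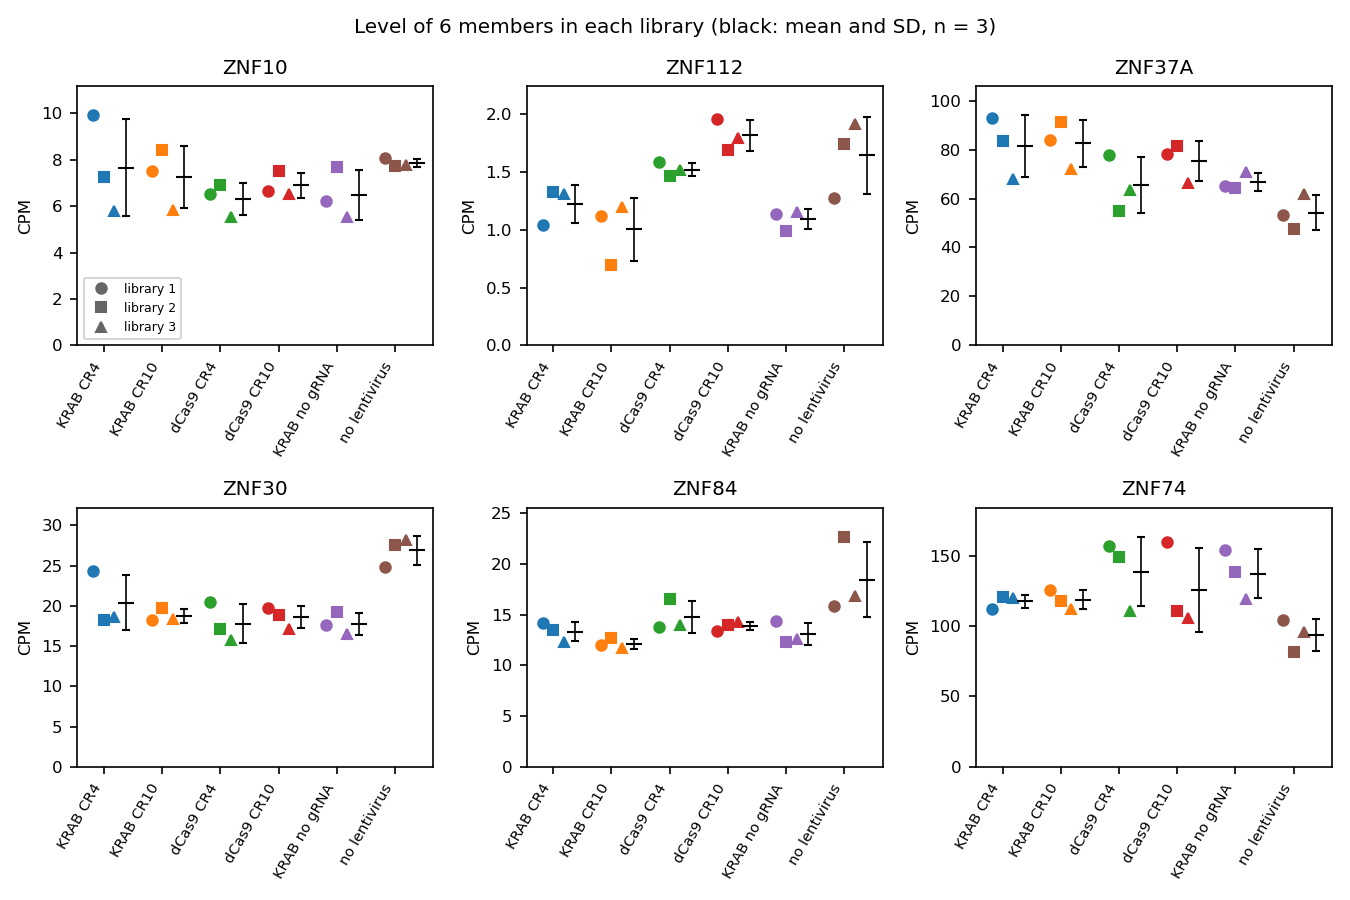
Each symbol is the TMM-scaled CPM of a library, shaped by its number, for 6 genes in the 6 groups, with the mean and SD (n = 3) in black beside it. ZNF10 overlaps across groups, ZNF112 is at or above 1.46 CPM in both dCas9 groups and at or below 1.33 CPM in the KRAB groups, and ZNF30 lies at 24.9 CPM or more in no_lentivirus and at 24.28 CPM or less elsewhere.

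The most calls among these genes came with the library number within the lentiviral groups. In libraries labelled number 3, set against numbers 1 and 2 with the group as a term, 12 of the 48 genes rose and 15 fell. Those 27 genes are 56.2% of the 48, and 53.8% of the 14599 genes tested passed in the same fit (27.9% higher, 25.9% lower), so the genes moved about as often as genes in general. The labels give the number as a replicate number and say nothing of a shared day or batch. This comparison was chosen with number 3 already seen to stand apart, so its p-values are no independent support. The fit takes the 15 libraries as separate units. If libraries of a number share an origin, the p-values do not measure the spread between such origins.

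Among the falls, ZNF189 had the smallest p and ZNF180 the largest change. ZNF189 lay between 16.0 and 18.4 CPM in the 5 libraries numbered 3 (median 17.5), against 24.8 to 31.8 CPM in the 10 others (median 27.1). No number 3 library reached the lowest of the others, and the log2 fold change was -0.65 ± 0.07 (adjusted p 4.78e-07, edgeR). ZNF180 lay between 4.97 and 6.74 CPM in number 3 (median 5.62), against 8.07 to 11.2 CPM (median 9.55), a change of -0.73 ± 0.10 (adjusted p 3.12e-06, edgeR). ZNF26, a neighbour of ZNF10, lay between 9.99 and 12.4 CPM (median 11.6) in number 3, against 13.1 to 19.7 CPM (median 17.2), a change of -0.57 ± 0.09 (adjusted p 2.37e-05, edgeR). The promoters of these 3 genes are the ones printed above, out of the 10 genes with that motif. They were picked for printing by name with earlier results known, so their place among the falls is not a separate result.
ZNF263, which has a SCAN domain beside KRAB, ranged from 28.8 to 41.6 CPM in number 3 (median 33.7), against 44.0 to 59.1 CPM (median 52.2), a change of -0.52 ± 0.08. The other SCAN and KRAB genes also fell, ZNF202 by 0.25 and ZNF274 by 0.22 on the log2 scale. ZNF45 (-0.49 ± 0.08), ZNF28 (-0.48 ± 0.07), ZNF79 (-0.40 ± 0.10) and ZNF17 (-0.38 ± 0.12) completed the largest falls together with ZNF268 and ZNF10.

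Of the 5 genes in the neighbourhood of ZNF10, 4 fell, in a fit where 25.9% of all genes fell. Among those that fell, ZNF26, ZNF140 and ZNF268 also hold the motif of the second promoter set, so they are counted again with that motif below. ZNF268 changed by -0.47 ± 0.10, ZNF140 by -0.24 ± 0.09 and ZNF10 by -0.33 ± 0.11, with adjusted p of 0.000523, 0.0343 and 0.0151 (edgeR), while ZNF84 was at -0.06 ± 0.08. ZNF10 lay between 5.53 and 6.53 CPM in number 3, against 6.25 to 9.94 CPM in numbers 1 and 2, and it no longer passed without KRAB_CR4 library 3 (adjusted p 0.0608) or KRAB_CR10 library 3 (adjusted p 0.0518, edgeR). ZNF195 did not pass (0.05 ± 0.06, adjusted p 0.561, edgeR), with an interval of -0.10 to 0.19. ZNF17 lost its call without KRAB_CR10 library 3 (adjusted p 0.0564), ZNF250 without KRAB_no_gRNA library 3 (adjusted p 0.0701), ZNF100 without dCas9_CR4 library 3 or dCas9_CR10 library 3 and ZNF140 without either of those or KRAB_CR4 library 3 (edgeR).

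The genes that rose include the near-copy promoter family. ZNF43 lay between 21.7 and 27.2 CPM in number 3 (median 25.8), against 15.1 to 22.9 CPM in numbers 1 and 2 (median 18.1), a change of 0.43 ± 0.08 (adjusted p 7.01e-05, edgeR). ZNF91 lay between 8.22 and 10.1 CPM (median 9.70), against 4.39 to 9.39 CPM (median 7.39), a change of 0.39 ± 0.10, and ZNF93 changed by 0.34 ± 0.10. Their ranges overlapped. ZNF100 (0.23 ± 0.07) and ZNF138 (0.22 ± 0.09) passed as well. Of the 8 tested members of this family 5 rose and 0 fell, with a median of 0.25 and a range of 0.03 to 0.43, beside a median of 0.03 for all genes. Reads shared among these near copies would tie their values together.
Outside the family ZNF25 rose most, at 5.22 to 8.07 CPM in number 3 (median 5.71), against 3.28 to 5.27 CPM (median 4.01), a change of 0.65 ± 0.13 (adjusted p 0.000232, edgeR). ZNF44 (0.47 ± 0.12), ZNF133 (0.38 ± 0.11), ZNF264 (0.33 ± 0.10), ZNF250 (0.33 ± 0.10), ZNF33A (0.31 ± 0.08) and ZNF33B (0.18 ± 0.08) also rose. ZNF133 and ZNF264 were the rising genes whose number 3 libraries did not overlap the others, and 7 falling genes did not overlap. That is 4.17% higher and 14.6% lower of the 48 genes, beside 9.12% and 11.7% of the 14599 genes tested.

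By promoter motif, 7 of the 10 genes with the ZNF26-type motif fell and 0 rose, with a median of -0.35, and 5 of the 13 tested genes with CCAATCAGG rose and 1 fell, with a median of 0.20. With first windows alone, which leave out ZNF273, they were 5 higher and 1 lower of 12 (median 0.21). All 5 that rose belong to the near-copy promoter family described above, so this count repeats the count of that family. The 1 that fell, ZNF79, lies outside it. Among other ZNF genes the CCAAT run went the same way, with 17 higher and 2 lower of 43 (median 0.26), beside 57 higher and 95 lower of the 303 without it. The other motif did not, with 13 higher and 9 lower of 46 other ZNF genes (median 0.02). Whether other ZNF genes are further copies of the near-copy family was not checked. Their count with the CCAAT run may therefore not be separate from the count of that family. Among all remaining genes neither motif went with a direction, at 50 higher and 48 lower of 172 with the CCAAT run and 120 higher and 120 lower of 429 with the other. These counts are descriptions of lists chosen with the values known, and the differences between them were not tested.

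**Figure D4:**
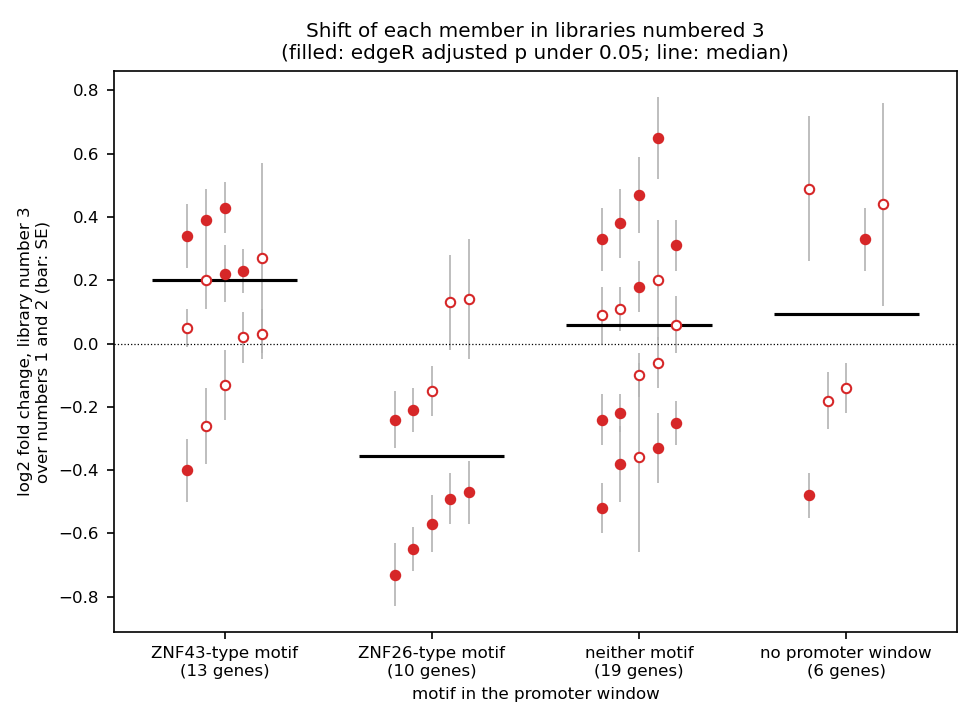
Each point is the edgeR log2 fold change (bar: SE) of a tested gene in libraries numbered 3 over numbers 1 and 2, by the motif in any of its promoter windows, filled where the adjusted p is under 0.05, with medians as lines. Of the 10 genes with the ZNF26-type motif (ACTACA, any 2 bases, TCCC) 7 are filled and lie below 0, and of the 13 with the ZNF43-type motif (CCAATCAGG) 5 are filled above 0. Those 5 all belong to the near-copy promoter family.

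The genes of the co-repressor list shifted in the same libraries. Of 27 tested, 2 rose and 16 fell in number 3, with a median of -0.23. The 18 called are 66.7% of the 27, beside 53.8% of all genes tested (27.9% higher, 25.9% lower). TRIM28 fell by 0.25 on the log2 scale (SE 0.05, adjusted p 0.000554, edgeR), and MPHOSPH8, a part of the HUSH complex, rose by 0.64 (SE 0.09, adjusted p 5.86e-06, edgeR). The share of either in the members' shifts was not tested. The KRAB against dCas9 comparison had 0 calls among the 48 genes also without the libraries numbered 3 and with the number as a block.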

How the data were processed

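The authors deposited raw counts per RefSeq transcript, 1 headerless file of 40709 lines per library. Named without their roles, per the submitters' processing notes, are DESeq, Picard, SAMtools, Bowtie2, R 3.1.2 and hg19; the counter, the annotation release and the treatment of reads with several alignments are not given in the sources used here. Per the labels' protocols, poly(A) RNA was prepared with a Nextera transposase, which does not mark strand, so sense and antisense reads cannot be told apart. All deposited counts were even (0 odd), as when both mates of a fragment are counted, and reads carried no molecular identifiers.

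Transcripts were matched to genes through RefSeq (39320 accessions) or GENCODE (521), 99.02% of counts, and summed; 868 accessions were kept as they were. Genes passing filterByExpr (14713, with 99.97% of counts) were scaled by TMM and tested with edgeR 4.0.16 (quasi-likelihood, R 4.3.3) in 1 fit of 18 libraries and 6 group means, with Benjamini-Hochberg adjustment over all genes and a threshold of 0.05. Genes varied between libraries of a group with a coefficient of 21.6%. Number 3 was compared with numbers 1 and 2 in the 15 lentiviral libraries with group and number as terms. Standard errors and 95% intervals of log2 fold changes come from the same fits. Kilobase levels used GENCODE lengths of the counted transcripts. Promoters were compared with Biopython 1.88. The procedure was tested on simulated data.

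The same numbers pair the lentiviral libraries: deviations from group means correlated above 0.1 in all 30 same-number pairs over 12604 genes (0.15 to 0.84), and in 18 of 60 pairs with different numbers. Of 15 same-number pairs with a no_lentivirus library 5 were above 0.1, so those are not paired.

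The members, lists and tests were chosen with earlier results of these data known. Named were ZNF10; each called gene, up to the 10 largest changes each way; where none passed, the 3 smallest p; the 5 highest and 5 lowest levels; the neighbours of ZNF10; ZNF195, ZNF91, ZNF93, ZNF202, ZNF263 and ZNF274. ZNF33B and ZNF138 in number 3, and ZNF100 and ZNF254 in no_lentivirus library 2, fall outside this rule and were chosen after their values were seen. The KRAB domain was not checked on protein sequence here. Alternatives were RLE factors, other filters, DESeq2 1.42.0, halved counts, fewer libraries, a replicate block and leaving out each library.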

Additional observations from a re-analysis of the deposited data

How the results depend on the processing

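In the 9 comparisons among lentiviral groups, 0 of the 48 genes passed under every alternative run, left-out libraries included, and the replicate block on the 15 lentiviral libraries changed no call. Against no_lentivirus the counts moved. For KRAB_no_gRNA (1 call) there were 3 with RLE factors, 4 with a mean of at least 50 counts, 7 with DESeq2, 4 with halved counts, 0 with only the groups compared, 8 with a replicate block over all 18 libraries and 4 without the lentiviral libraries numbered 3. For dCas9 (5 calls) there were 8 with DESeq2, 0 with only the groups compared, 8 with the replicate block and 11 without number 3. For KRAB with a gRNA (6 calls) there were 2 with only the groups compared and 9 with the block. Leaving out a library gave 0 to 14, 0 to 14 and 0 to 10 calls. These libraries share only a number with no_lentivirus, and the cause was not tested. For number 3 against 1 and 2 (27 calls) the other settings gave 26 or 27, and leaving out a library 22 to 28.

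Small fold changes that did not pass changed sign. ZNF10 was at 0.06 in KRAB with a gRNA against no_lentivirus, and ZNF268 at 0.10 in KRAB against dCas9, both without number 3. With a library left out, ZNF10 ran from -0.13 to 0.11 in dCas9_CR4 against KRAB_no_gRNA, -0.03 to 0.37 in the difference of effects, -0.20 to 0.01 in KRAB with a gRNA against no_lentivirus, -0.03 to 0.21 in KRAB_CR10 against dCas9_CR10, -0.16 to 0.24 in KRAB_CR4 against KRAB_CR10. In KRAB against dCas9 the ranges were -0.06 to 0.01 for ZNF195, -0.18 to 0.01 for ZNF263, -0.14 to 0.10 for ZNF268, -0.08 to 0.01 for ZNF274, -0.02 to 0.21 for ZNF91, -0.01 to 0.20 for ZNF93.

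Genes near 1 CPM, such as ZNF112, ZNF114 and ZNF155, rest on few counts, and their differences are the least certain. Intervals cover counting and library spread only.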
